A study of Mus musculus with 9 samples.

Results

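Mouse primary renal tubular epithelial cells transfected with an Egr1 overexpression plasmid (EGR1OV) were compared with cells exposed to hypoxia and reoxygenation (H/R). The comparison covered 10913 expressed protein-coding genes, which averaged 1 FPKM or more in the 3 EGR1OV and 3 H/R libraries together, out of 18266 protein-coding rows and 31167 rows in the table. Of the protein-coding rows 17525 were above 0 in at least 1 of these 6 libraries. Just above the limit lay Ccl9 at a mean of 1.00 FPKM and just below it Ptprz1 at 0.999774 FPKM.

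FPKM counts fragments relative to the exon length of a gene and to the depth of its library. The cells came from C57BL/6 mice and were kept in culture. H/R cells spent 6 h in glucose-free medium at 1.0% oxygen and then 18 h in complete medium. EGR1OV cells received a plasmid built on the pReceiver-M02 backbone, in which a cytomegalovirus promoter drives Egr1 in any cell type, by lipid transfection before the cells were confluent. Sham cells were the negative control, with 3 libraries. The design text and the study present H/R and the plasmid as alternative treatments of these cells, and the labels of the EGR1OV libraries name the plasmid alone, while the general methods for transfection experiments describe H/R after it. No library from cells given an empty plasmid was among those compared, so the effects of EGR1, of plasmid DNA and of the transfection reagent cannot be told apart. The labels do not say that replicates were separate cultures or animals, and p-values then measure the spread between these libraries only.

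EGR1 is a zinc finger transcription factor and an immediate early gene, switched on within minutes of growth factor signalling, hypoxia or injury. In the kidney it is known as an early response gene of tubular cells after ischaemia. Hypoxia and reoxygenation model that ischaemia in culture: low oxygen stabilises hypoxia-inducible factor (HIF), which turns on glycolytic genes, and the return of oxygen brings oxidative stress. Foreign DNA in the cytosol of a cell is sensed by receptors that switch on type I interferon, which acts back on cells through its receptor and a promoter element of its target genes.

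The libraries held 16183617 to 18384022 fragments, as recovered from the table, a ratio of 1.14 between the deepest and the shallowest. The median coefficient of variation within a group, over genes of at least 5 FPKM, ranged from 3.33% for Sham to 3.78% for EGR1OV libraries. Tubular markers were present. Pax8 stood at 13.5 FPKM in EGR1OV and 12.3 in H/R cells, and Epcam at 100.4 and 96.0 FPKM. The phosphate transporter Slc34a1 of the proximal tubule reached at most 0.0362 FPKM in any library, and Umod of the thick ascending limb was listed at 0 in all 9 libraries. Gm23935, a small non-coding gene outside the comparison, took from 0.541% to 7.34% of the FPKM sum of a library, with its highest values in Sham replicate 3 and H/R replicates 2 and 3.

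Egr1 itself was read in every library first. EGR1OV libraries held 45.7, 42.2 and 40.1 FPKM, H/R libraries 8.57, 7.59 and 7.48 FPKM, and Sham libraries 6.20, 6.91 and 6.09 FPKM. All EGR1OV libraries lay above all others. The ratio of means between EGR1OV and H/R was 5.41, and the difference on the log2(FPKM + 1) scale was 2.30 ± 0.066 (SE, n = 3 per group, limma, adjusted p = 4.6e-09). Fragments from the plasmid and from the chromosomal gene were counted together. Sox9, a regulator of tubular repair, stood at 17.6, 18.7 and 17.3 FPKM in EGR1OV at 14.8, 17.3 and 17.7 FPKM in H/R and at 12.3, 14.1 and 13.0 FPKM in Sham libraries. EGR1OV and H/R overlapped, with a difference of 0.11 ± 0.07 (SE, limma, adjusted p = 0.24). Against Sham the difference was 0.42 in EGR1OV (limma, adjusted p = 0.00097), which was called, and 0.31 in H/R (limma, adjusted p = 0.023), which did not reach 1.3-fold.

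Which programs parted the treated groups was asked across all expressed genes. A gene was called where the limma adjusted p was under 0.05 and the difference at least 1.3-fold. In EGR1OV against H/R, 2215 of 10913 genes were called (20.3%), 1436 of them higher in EGR1OV (13.2%) and 779 lower (7.14%). Called genes were thus higher in EGR1OV in 64.8% of cases, against 52.0% with median-ratio scaling (1110 higher, 1026 lower) and 43.4% with quantile normalization (939 higher, 1224 lower). The median of all expressed genes was 0.07 (log2), and quantile normalization moved it to -0.04, a shift of just over 0.1 that lies beside every small difference given here. EGR1OV and H/R libraries did not overlap in 7186 of the 10913 genes (65.8%) and in 2210 of the 2215 called. A lack of overlap in a single gene given below was therefore common, and it was a condition for the 10 largest rises and falls.

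Large differences went mainly upward. These are folds of FPKM + 1, which are smaller than ratios of FPKM for genes at low levels. At least 4-fold higher in EGR1OV were 152 genes, and at least 4-fold lower were 8. At least 16-fold different were 48 genes higher and 0 lower. Of the 152 genes, 101 belonged to 10 lists of interferon, antigen presentation, chemokine, NF-kB, complement and cell death genes, which together covered 247 of the 10913 expressed genes. These lists were chosen with earlier results of these data known. Some of their genes, 29 antiviral effectors among them, had an H/R mean under 1 FPKM and counted as expressed only through EGR1OV. The 101 is therefore a description only. On this scale the 8 genes that were at least 4-fold lower were Apoe, Lyz2, Acta1, C1qa, Lce1h, Dgkk, C1qc and C1qb. The plot of mean levels shows both sides.

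**Figure D1:**
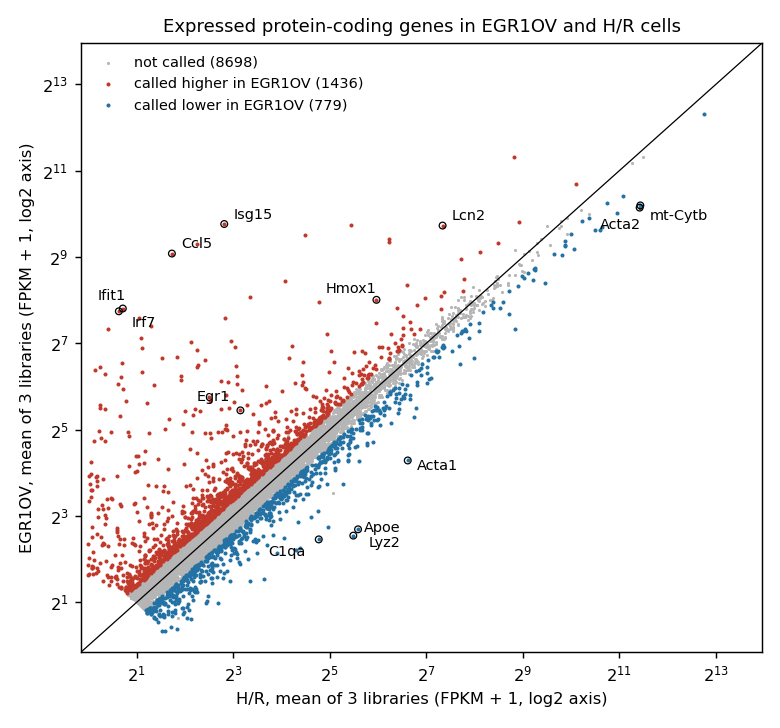
Mean FPKM + 1 of 3 H/R libraries (x axis, log2 scale) against that of 3 EGR1OV libraries (y axis, log2 scale) for 10913 expressed protein-coding genes, with the line of equality. The 1436 genes called higher in EGR1OV (red) reach far above the line and include Ccl5, Isg15, Ifit1 and Irf7, and the 779 called lower (blue) lie closer to it, with Apoe, Lyz2, C1qa and Acta1 farthest away.

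Over the 2215 called genes, the median size of the difference from Sham was 0.50 (log2) for EGR1OV and 0.11 for H/R, with Sham shared by both. Against Sham, 1883 expressed genes were called in EGR1OV (17.3%) and 154 in H/R (1.41%), the latter rising to 317 with a pseudocount of 0.1 and 359 with voom on recovered fragments. The list medians against Sham are given for the main programs beside the direct comparison.

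The largest program was the interferon response. Its effectors degrade viral RNA, block translation or trap viral particles. Of 62 expressed antiviral effectors, 60 were higher in EGR1OV than in H/R and 0 lower, with a median difference of 3.49 (log2) beside 0.07 for all genes. Of the 62, 29 had an H/R mean under 1 FPKM and counted as expressed only through EGR1OV, so they had to lie higher there. Of the other 33, 31 were higher, with a median of 3.41. Ifitm2 and Ifi27 were not called. Genes given here and below as the few exceptions of a list were chosen after their values were seen. Against Sham the median of the list was 3.45 in EGR1OV and -0.06 in H/R. Their summed level was 6398 to 6573 FPKM in EGR1OV libraries and 266 to 272 FPKM in H/R libraries.

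Promoters of the leading effectors are shown because they carry the element that the interferon-activated complex binds. Each line gives 300 bases from RefSeq (GRCm38.p6), from 250 bases before to 50 after the start of the gene, 5′ to 3′ along the gene. Capitals mark matches to GAAANNGAA on either strand, a partial form of the interferon-stimulated response element. Ifit1 (plus strand, chr19:34640639-34640938) held 3 matches, beginning 109, 103 and 84 bases before the start, of which the first pair overlap. Ifit3 (plus strand, chr19:34583279-34583578) held 3 matches at 155, 121 and 102 bases, and Isg15 (minus strand, chr4:156200769-156201068) 3 overlapping matches at 78, 72 and 66 bases before the start.
Ifit1: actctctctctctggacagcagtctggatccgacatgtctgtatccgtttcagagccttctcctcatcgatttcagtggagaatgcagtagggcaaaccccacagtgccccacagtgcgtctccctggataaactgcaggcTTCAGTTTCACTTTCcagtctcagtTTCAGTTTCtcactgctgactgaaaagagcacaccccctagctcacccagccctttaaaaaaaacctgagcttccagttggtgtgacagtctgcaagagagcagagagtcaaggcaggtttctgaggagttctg
Ifit3: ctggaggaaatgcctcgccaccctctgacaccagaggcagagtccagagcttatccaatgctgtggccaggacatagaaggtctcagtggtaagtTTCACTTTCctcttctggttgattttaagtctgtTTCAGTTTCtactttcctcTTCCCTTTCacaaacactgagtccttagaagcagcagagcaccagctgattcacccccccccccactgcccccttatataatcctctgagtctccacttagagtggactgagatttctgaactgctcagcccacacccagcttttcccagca
Isg15: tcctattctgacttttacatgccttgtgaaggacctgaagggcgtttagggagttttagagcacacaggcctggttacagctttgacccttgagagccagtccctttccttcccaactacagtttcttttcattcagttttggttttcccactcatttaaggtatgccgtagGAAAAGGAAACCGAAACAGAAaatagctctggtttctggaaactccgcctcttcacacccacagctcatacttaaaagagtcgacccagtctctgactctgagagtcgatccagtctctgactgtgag

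Ifit1, which binds foreign RNA caps, measured 209.6, 215 and 215 FPKM in EGR1OV and 0.512, 0.799 and 0.340 FPKM in H/R libraries. No library of either group came near the other, with a ratio of means of 388 and a difference of 7.12 ± 0.11 (SE, limma, adjusted p = 8.8e-11). Isg15, a ubiquitin-like protein joined to other proteins during infection, measured 835, 887 and 885 FPKM against 5.88, 5.97 and 6.26 FPKM in H/R. This was a ratio of 144 (limma, adjusted p = 1.0e-08). Ifit3 held 619, 635 and 631 FPKM in EGR1OV and 4.11, 3.43 and 3.72 FPKM in H/R, a ratio of 168. Rsad2 (viperin, which makes a chain-terminating nucleotide) had a ratio of 483 and the Isg15-specific protease Usp18, which damps receptor signalling, a ratio of 116. Ifit3b, Iigp1 and Tgtp1 completed the 10 largest rises with Ccl5, Irf7 and those already named. Of the 10, Ifit1, Rsad2, Iigp1, Tgtp1 and Irf7 had H/R means under 1 FPKM and counted as expressed only through EGR1OV. They therefore had to lie higher there. Ifit3 and Ifit3b, and Tgtp1 and Tgtp2, are near-identical neighbours whose fragments the counting could split between them, so their separate levels are uncertain.

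The signalling chain of the response followed. Ifnb1, the interferon-beta gene, measured 3.05, 3.02 and 1.90 FPKM in EGR1OV libraries (38, 37 and 24 fragments) and was at 0 in all H/R and Sham libraries. Against the limit that a count of 0 allows, 3 fragments per H/R library, it was at least 11.55-fold higher in EGR1OV. Of 7 expressed interferon and receptor genes 3 were called higher, Ifnb1 with the receptor chains Ifnar2 and Ifnlr1 at differences of 0.51 and 0.54, and Ifnar2 lost its call with quantile normalization. The median of these 7 genes was 0.20, also with Ifnb1 at its bound. Ifnb1 counted as expressed only through EGR1OV, and without it 2 of 6 were called, with a median of 0.14. The same held for 5 sensors, 3 interferon regulatory factors, Stats and feedback genes, 4 MHC class I genes and 11 chemokines and cytokines. It also held for 4 other interferon-linked enzymes, 3 complement genes, 2 cell death genes, 3 DNA replication genes and 2 Nrf2 genes. In other lists it held for 2 EGF and FGF genes, for Krt16 among keratins and for Tjp3 among junction genes. The lists of EGR1 targets, glycolysis, E2f, mitosis, TGF-beta and prostaglandin genes held 1 such gene each. Of all expressed genes it held for 237, while 132 had an EGR1OV mean under 1 FPKM. Such genes had to lie higher in EGR1OV, but not all were called, and Ccl9 was not. Genes named below for which it held include Zbp1, Dhx58, Irf7, H2-Q6, Nlrc5, Cxcl1, Casp4, Nos2 and C3.

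Sensors of foreign nucleic acid were higher in 16 of 21 cases and lower in 0, with a median of 1.48 (1.49 against Sham in EGR1OV, 0.00 in H/R). Of the 16 sensors with an H/R mean of at least 1 FPKM, 11 were higher, with a median of 1.365. The Z-nucleic acid sensor Zbp1 had means of 25.7 FPKM in EGR1OV and 0.0911 in H/R, and Dhx58 (LGP2, a helper of the RNA sensors) 25.6 and 0.279 FPKM. The DNA-binding Ifi204 had 64.3 and 1.58 FPKM. The adaptors Mavs, Tmem173 (STING) and Ticam1 and the receptor Tlr4 were among the 5 that were not called, with Zcchc3. In the list of interferon regulatory factors, Stats and feedback genes, 13 of 21 were higher and 1 lower, the cytokine signalling suppressor Socs2 at -0.41. Of the 18 with an H/R mean of at least 1 FPKM, 11 were higher and 1 lower, with a median of 0.52. Irf7 was not one of these. Irf7, the factor that amplifies interferon transcription, measured 218, 228 and 223 FPKM in EGR1OV and 0.556, 0.605 and 0.761 FPKM in H/R. This gap was a ratio of 348 with no library in between (limma, adjusted p = 1.2e-11). The signalling factors Stat2 and Irf9 had ratios of 25.2 and 6.85.

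Antigen presentation moved with it. MHC class I molecules show cell peptides to T cells, after the proteasome cuts the peptides and Tap1 and Tap2 carry them to the endoplasmic reticulum. Of 24 expressed genes of this path, 20 were higher in EGR1OV, 1 lower (H2-T24 at -0.39) and Pdia3, Calr and Canx not called, with a median of 2.62 (2.70 against Sham in EGR1OV, 0.06 in H/R). Of the 20 with an H/R mean of at least 1 FPKM, 16 were higher and 1 lower, with a median of 2.16. The class I gene H2-Q6 held 75.1, 77.7 and 78.4 FPKM in EGR1OV against 0.178, 0.209 and 0.406 FPKM in H/R. Class I genes are alike in sequence and their separate levels are uncertain. The peptide transporter Tap1 measured 43.1, 42.6 and 40.2 FPKM against 3.13, 2.95 and 2.93 FPKM, a ratio of 13.98, and the class I transactivator Nlrc5 had a ratio of 92.5. Of 31 constitutive proteasome subunits, 8 were higher and 0 lower (median 0.29), but 2 were called with each of the other scalings. The 8 made up 25.8% of the subunits, beside 13.2% of all expressed genes called higher. Psma6 had the largest of these differences at 0.64.

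Genes of these families lie in clusters, and whole runs of neighbouring expressed genes were called together. On chr19 the Ifit cluster (34550694 to 34650009, positions as in the table, equal to GENCODE M21 on GRCm38 in 94.6% of rows) held 6 neighbours in a row that were higher, with a median of 5.66 (log2). On chr11 a run of 9 from Irgm1 to Ifi47, on chr7 one of 7 Trim genes and on chr1 one of 6 Ifi200 genes were higher throughout. The Oas cluster on chr5 gave 5 in a row, and 4 in a row came from each of the Gbp clusters on chr3 and chr5 and from Psmb9, Tap1, Psmb8 and Tap2 on chr17.

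Chemokines and cytokines were higher for 24 of 33 genes and lower for 4, with a median of 1.35 (1.36 against Sham in EGR1OV, 0.14 in H/R). Of the 22 with an H/R mean of at least 1 FPKM, 14 were higher and 4 lower, with a median of 1.07. Ccl5, which draws T cells and monocytes, had the largest difference of the named genes on the log2(FPKM + 1) scale, though not the largest ratio. It measured 507, 526 and 589 FPKM in EGR1OV and 1.80, 3.46 and 1.70 FPKM in H/R libraries. The ratio was 233 and the difference 7.39 ± 0.17 (SE, limma, adjusted p = 9.9e-10). Cxcl10, the interferon-inducible T cell chemokine, measured 264, 268 and 267 FPKM against 9.08, 9.73 and 8.71 FPKM, a ratio of 29.0. It was also higher in H/R than in Sham (6.62, 5.83 and 5.94 FPKM). The neutrophil and monocyte chemokines Cxcl1 and Ccl2 had ratios of 38.9 and 19.6. The 4 genes that were lower were Cxcl14, Il23a, Ppbp and Cxcl12, at differences from -1.08 to -0.72. The promoter of Cxcl10 (minus strand, chr5:92348840-92349139) is shown since 1 match, 213 bases before the start, was found in it.
Cxcl10: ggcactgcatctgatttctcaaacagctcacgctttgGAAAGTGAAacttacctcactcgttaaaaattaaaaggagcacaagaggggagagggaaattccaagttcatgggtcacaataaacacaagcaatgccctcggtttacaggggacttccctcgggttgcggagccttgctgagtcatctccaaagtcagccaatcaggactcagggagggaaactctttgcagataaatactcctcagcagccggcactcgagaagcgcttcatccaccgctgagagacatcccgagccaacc

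The element was searched in the promoters of the 8553 expressed genes found in the RefSeq table, taking the first listed start where a gene had several (1770 genes). GAAANNGAA was present in 7.13% of all 8553 promoters. Of the 117 promoters of genes at least 4-fold higher in EGR1OV it was present in 42.7%, of the 49 of antiviral effectors in 59.2%, of the 1111 of all genes called higher in 12.5%, and of the 563 of genes called lower in 7.64%. The Egr site GCGNGGGCG, searched on both strands, was present in 11.1% of all promoters, in 9.90% of those called higher, in 12.6% of those called lower and in 3.42% of those at least 4-fold higher. The partial NF-kB site GGGNNTTTC was present in 4.08% of all promoters, in 6.12% of those called higher and in 28.6% of 21 chemokine and cytokine promoters. Shares in the antiviral and chemokine lists describe the listed genes and not the comparison. A match is a description of letters in a window of fixed length and shows no binding. GAAANNGAA is rich in A and T and GCGNGGGCG in G and C, and base composition differs between promoters.

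**Figure D2:**
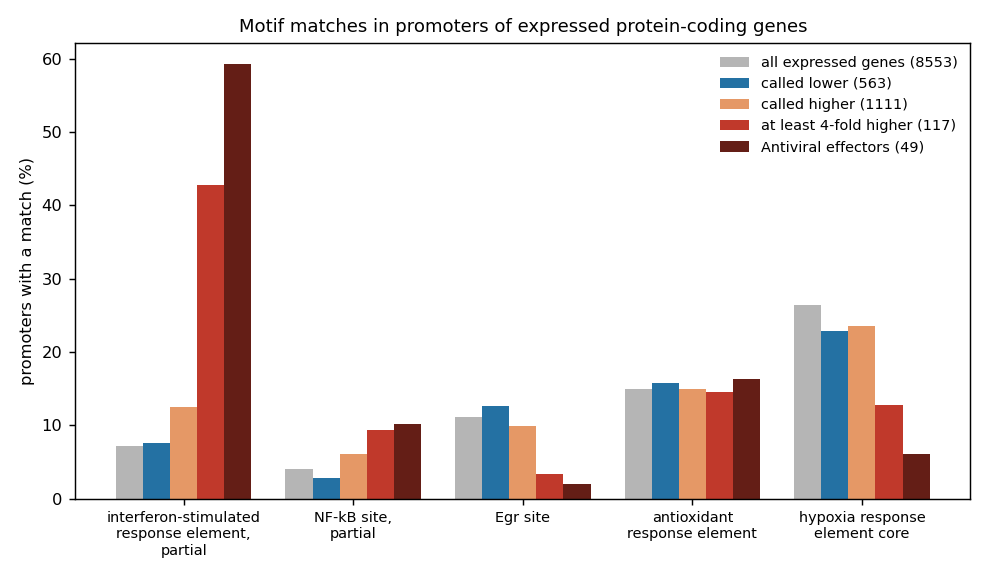
Share of promoters (y axis, percent) with a match to each of 5 motifs on either strand, for all 8553 expressed genes with a promoter and for 4 groups of them, with the number of promoters in brackets. The interferon element was present in 7.13% of all promoters and in 42.7% of those at least 4-fold higher, and the Egr site in 11.1% and 3.42%. For antiviral effectors the shares were 59.2% and 2.04%, which describe the listed genes and not the comparison.

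NF-kB is the other main inflammatory factor, held in the cytoplasm by inhibitors that it induces itself. Of 27 subunits, inhibitors and feedback genes, 17 were higher and 0 lower in EGR1OV (median 0.49, 0.74 against Sham in EGR1OV and 0.12 in H/R). The adhesion molecule Icam1 had means of 12.2 FPKM in EGR1OV and 3.29 in H/R, a ratio of 3.71. The atypical inhibitor Nfkbiz measured 39.4, 38.03 and 37.0 FPKM against 12.5, 13.3 and 14.9 FPKM, with no overlap (ratio 2.81, limma, adjusted p = 6.7e-08). Vcam1 was higher in both treated groups than in Sham, with means of 10.3 FPKM in EGR1OV, 4.10 in H/R and 2.51 in Sham. Among 28 cell death genes 11 were higher and 1 lower, the survival gene Bcl2 at -0.58. Mlkl, the executioner of necroptosis, rose from a mean of 4.73 FPKM in H/R to 49.7 in EGR1OV, and the pore-forming Gsdmd from 1.65 to 5.95 FPKM. Casp4 (caspase-11) had a ratio of 11.1.

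Among 10 other interferon-linked enzymes 6 were higher and 1 lower (the oxidase subunit Cybb at -0.40). Of the 10, 4 counted as expressed only through EGR1OV. Of the other 6, 2 were higher and 1 lower, with a median of 0.23. Nos2, the inducible nitric oxide synthase, measured 14.9, 14.6 and 13.4 FPKM in EGR1OV, and H/R held 1 fragment in 1 library and 0 in the others. Complement had 5 of 14 genes higher and 5 lower. Of the 11 with an H/R mean of at least 1 FPKM, 2 were higher and 5 lower. Higher were the central component C3 (28.0 against 0.800 FPKM, ratio 35.0), C1ra, C1s1, Cfi and the inhibitor Serping1. Lower were C1qa, C1qb, C1qc, Cd59a and Masp1. The C1q genes are made by macrophages and are given again with them.

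Antioxidant genes under Nrf2, the factor freed by oxidative or electrophilic stress, formed a separate program. Of 33 genes 25 were higher in EGR1OV and 0 lower (median 0.70, with 0.70 against Sham in EGR1OV and -0.07 in H/R). Hmox1, which breaks down haem, measured 263, 258 and 249 FPKM in EGR1OV, 62.6, 61.3 and 61.0 FPKM in H/R and 76.7, 79.0 and 80.2 FPKM in Sham. H/R libraries were the lowest of the 3 groups, and the difference between the treated groups was 2.04 ± 0.027 (SE, limma, adjusted p = 4.0e-11). The peroxiredoxin repair enzyme Srxn1 had means of 58.9 and 15.2 FPKM and the quinone reductase Nqo1 a ratio of 4.89. The cystine carrier Slc7a11 had a ratio of 4.07. The motif TGACNNNGC of the antioxidant element was present in 32.1% of 28 promoters of the list and in 15.0% of all. The share in the list describes the listed genes and not the comparison. Among promoters of genes called higher the motif was present in 14.9%, and among those at least 4-fold higher in 14.5%.

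In the integrated stress response, kinases that sense stress slow translation and raise Atf4 and its targets. Of 30 genes 11 were higher and 0 lower, with a median of 0.30 (0.05 against Sham in EGR1OV, -0.23 in H/R). The chromatin protein Nupr1 measured 90.0, 98.6 and 92.6 FPKM in EGR1OV, 21.1, 20.9 and 20.2 FPKM in H/R and 26.7, 27.1 and 29.0 FPKM in Sham. The order was the same in every library, EGR1OV above Sham above H/R. Ddit3 (CHOP), a pro-apoptotic factor, had means of 66.8 FPKM in EGR1OV and 18.4 in H/R, and the pseudokinase Trib3 24.2 and 11.2 FPKM. In the unfolded protein response of the endoplasmic reticulum 2 of 25 genes were higher, Syvn1 and Sdf2l1, and both lost the call under quantile normalization. That was 8% of the list, beside 13.2% of all expressed genes called higher.

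Some proliferation genes were higher in EGR1OV than in H/R, by small steps. Of 46 DNA replication genes 18 were higher in EGR1OV and 0 lower, with a median of 0.33 (0.05 against Sham in EGR1OV, -0.30 in H/R), and 11 were called with quantile normalization. Against Sham, 1 of them was called higher in EGR1OV and 11 were called lower in H/R. Mcm5, a subunit of the replicative helicase, measured 8.94, 8.64 and 10.1 FPKM in EGR1OV, 4.61, 4.84 and 4.63 FPKM in H/R and 7.89, 7.47 and 7.10 FPKM in Sham. H/R libraries lay well below both other groups. Mcm6 was higher than in Sham as well, with means of 25.6 FPKM in EGR1OV, 13.2 in H/R and 15.5 in Sham. E2f1, the activator of S phase genes, had means of 4.13, 2.102 and 3.55 FPKM. The promoter of Mcm6 (minus strand, chr1:128359656-128359955) is shown with matches to the E2f site TTTNGCGC in capitals on either strand, 3 of them, at 110, 106 and 47 bases before the start with the first pair overlapping. The site was present in 24.3% of 37 replication gene promoters and in 2.53% of all. Among promoters of all genes called higher it was present in 2.34%.
Mcm6: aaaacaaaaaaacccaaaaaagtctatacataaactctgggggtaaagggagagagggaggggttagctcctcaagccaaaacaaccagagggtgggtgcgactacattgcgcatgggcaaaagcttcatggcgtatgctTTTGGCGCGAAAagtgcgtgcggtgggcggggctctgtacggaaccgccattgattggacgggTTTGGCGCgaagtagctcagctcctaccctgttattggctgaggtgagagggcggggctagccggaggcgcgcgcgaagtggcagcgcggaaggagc

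Mitosis and G2/M genes were higher for 13 of 52 and lower for 0 (median 0.23, with 0.00 against Sham in EGR1OV and -0.22 in H/R), and 0 were called lower in H/R than in Sham (limma). With median-ratio scaling 6 and with quantile normalization 2 of them were called higher. In the main fit the share called higher was 25%, beside 13.2% of all expressed genes. The securin gene Pttg1 stood apart with means of 16.1 FPKM in EGR1OV, 6.32 in H/R and 6.33 in Sham. The mitotic kinase Plk1 had 15.8, 9.78 and 12.3 FPKM. Of 11 E2f and retinoblastoma family genes, E2f1 was higher and Rb1 lower, at -0.78 (18.2% called, beside 20.3% of all). Of 15 G1 cyclins and CDK inhibitors 2 were lower and 2 higher (26.7%). Cdkn1c (p57) was lower at -0.99 and Ccnd1 (cyclin D1) at -0.48, while Ccnd3 and Ccne1 were higher at 0.55 and 0.52. The other growth brakes of these lists, Rbl1, Rbl2, Cdkn1a, Cdkn1b, Cdkn2a, Cdkn2b, Cdkn2c and Cdkn2d, were not called.

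Genes of the hypoxia response were lower and higher side by side. Of 22 glycolysis and lactate genes 5 were lower in EGR1OV than in H/R and 4 higher, and of 35 HIF targets outside glycolysis 9 were lower and 2 higher (Adm and Kdm3a). Calls made up 40.9% and 31.4% of these lists, beside 20.3% of all expressed genes. Against Sham, 6 glycolysis genes and 6 other HIF targets were called higher in H/R and 0 lower, while in EGR1OV 3 and 4 were called higher and 0 and 2 lower. The lactate exporter Slc16a3 (MCT4) measured 6.78, 6.49 and 6.22 FPKM in EGR1OV, 12.7, 11.96 and 12.5 FPKM in H/R and 4.99, 4.72 and 4.99 FPKM in Sham. H/R was above all other libraries, with a difference between the treated groups of -0.84 ± 0.042 (SE, limma, adjusted p = 2.9e-07). Pdk1, which keeps pyruvate out of mitochondria, had means of 2.45, 4.92 and 2.0985 FPKM in the same order, and Ldha (lactate dehydrogenase) 154, 224 and 145 FPKM. The HIF target Fam162a had 67.0, 129 and 73.5 FPKM.

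Among the 4 glycolysis genes that were higher, Hk2 (hexokinase 2), which phosphorylates glucose on entry, measured 58.8, 61.1 and 56.0 FPKM in EGR1OV, 35.8, 32.2 and 33.4 FPKM in H/R and 34.6, 34.6 and 31.7 FPKM in Sham, and only EGR1OV differed from Sham by the call. Pfkfb3, Eno2 and Slc16a1 were the other 3, at differences from 0.38 to 0.41, and with either of the other scalings the split was 1 higher and 8 lower. The promoter of Slc16a3 (plus strand, chr11:120948817-120949116) is shown with 2 matches to the HIF core ACGTG in capitals, at 27 and 14 bases before the start. This short core was present in 50.0% of 22 glycolysis promoters, 53.8% of 26 promoters of other HIF targets and 26.4% of all. Among promoters of genes called lower in EGR1OV it was present in 22.9%, and of those called higher in 23.6%.
Slc16a3: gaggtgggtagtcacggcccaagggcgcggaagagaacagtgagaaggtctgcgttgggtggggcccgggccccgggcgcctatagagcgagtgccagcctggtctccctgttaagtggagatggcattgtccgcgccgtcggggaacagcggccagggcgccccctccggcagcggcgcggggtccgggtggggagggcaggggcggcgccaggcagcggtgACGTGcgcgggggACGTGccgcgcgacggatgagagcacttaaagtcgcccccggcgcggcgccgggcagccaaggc

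Sterol synthesis was higher in H/R. Its enzymes build cholesterol under the factor Srebf2, which responds to low sterol in the membrane. Of 25 genes 11 were lower in EGR1OV than in H/R and 0 higher (median -0.35, with -0.09 against Sham in EGR1OV and 0.26 in H/R), and 8 were called higher in H/R than in Sham. Idi1, an isomerase of the path, measured 3.04, 2.65 and 3.27 FPKM in EGR1OV, 8.67, 8.30 and 9.59 FPKM in H/R and 5.73, 5.20 and 5.01 FPKM in Sham. The 3 groups did not overlap. Hmgcs1, an early enzyme of the path, had means of 12.3, 23.3 and 15.8 FPKM.

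**Figure D3:**
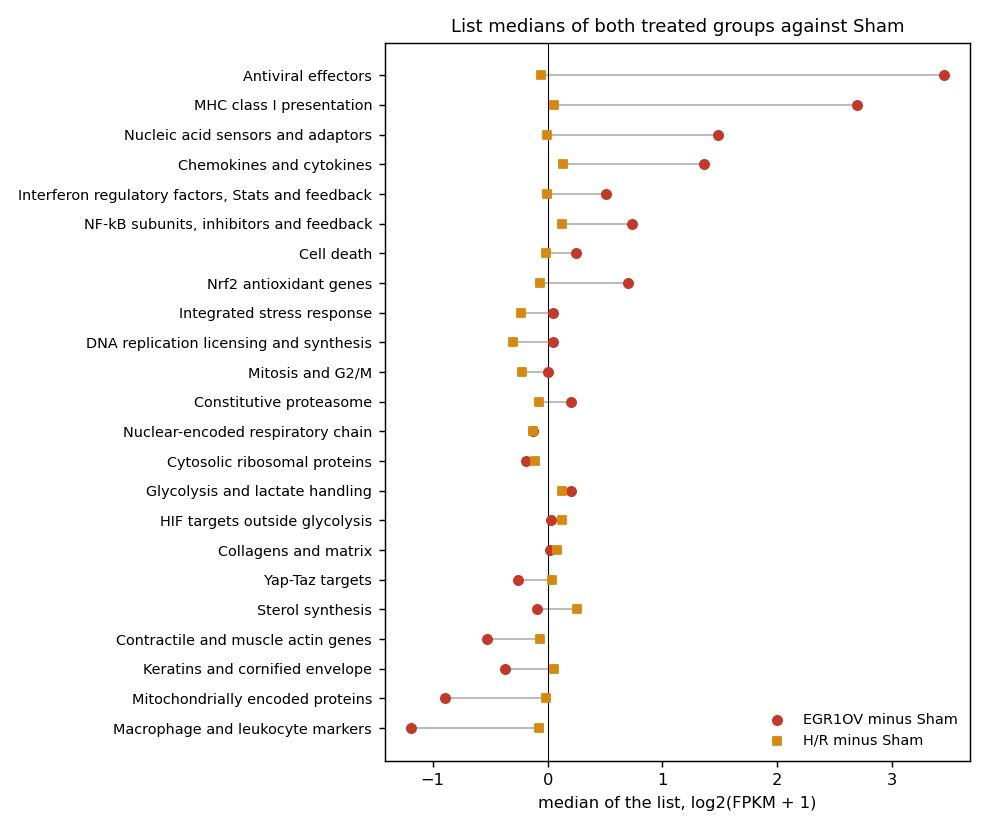
Median difference from Sham on the log2(FPKM + 1) scale (x axis) of 23 gene lists, for EGR1OV (circles) and H/R (squares), with the 3 Sham libraries shared by both. Antiviral effectors sit at 3.45 in EGR1OV and -0.06 in H/R, mitochondrially encoded genes at -0.90 and -0.01, DNA replication genes at 0.05 and -0.30, and sterol synthesis genes at -0.09 and 0.26.

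All 12 expressed protein genes of the mitochondrial genome were lower in EGR1OV, next to each other from position 2751 to 15288, with a median of -0.90 (-0.90 against Sham in EGR1OV, -0.01 in H/R). They encode core subunits of the respiratory chain. mt-Cytb of complex III measured 1197, 1113 and 1206 FPKM in EGR1OV, 2772, 2723 and 2814 FPKM in H/R and 2753, 2793 and 2889.5 FPKM in Sham. EGR1OV lay below all other libraries (difference -1.24 ± 0.036, SE, limma, adjusted p = 5.0e-09). mt-Nd5 of complex I had means of 831, 1604 and 1604 FPKM in EGR1OV, H/R and Sham, and mt-Nd6 338, 704 and 696 FPKM. mt-Co3 and mt-Atp6 had lower levels, with H/R means of 21.9 and 13.1 FPKM. Mitochondrial genes have near-identical copies in nuclear DNA, so their levels are uncertain.

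Nuclear genes of the same chain gave almost no calls. Of 74 nuclear-encoded respiratory chain genes 1 was higher (Ndufs7 at 0.39, which lost the call under median-ratio scaling and quantile normalization) and 0 lower, with a median of 0.01. The 80 cytosolic ribosomal protein genes gave 0 calls (limma, median -0.09, with 41 of them at an unadjusted p under 0.05). Of 76 mitochondrial ribosomal protein genes 12 were higher (15.8%, near the 13.2% of all expressed genes) and 0 lower, with 9 and 5 called under median-ratio scaling and quantile normalization.

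**Figure D4:**
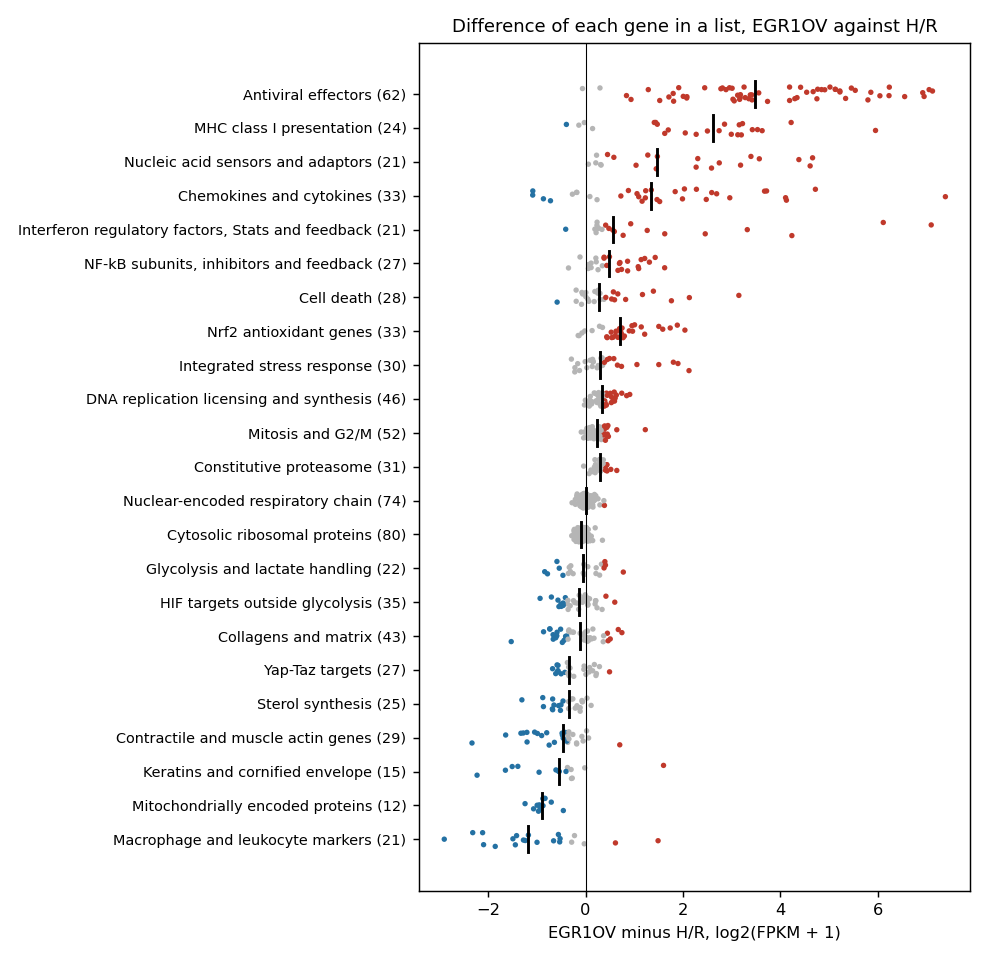
Difference between EGR1OV and H/R on the log2(FPKM + 1) scale (x axis) for each expressed gene (points) of 23 lists, with the number of genes in brackets and the list median as a bar. Red points were called higher in EGR1OV, blue points lower and grey points not called. Antiviral effectors spread up to above 7, nuclear respiratory and cytosolic ribosomal genes stay near 0, all mitochondrially encoded genes lie below 0, and most macrophage markers do, with Cd14 and Mpeg1 above it.

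Counts of 0 in one direction are by limma with both limits. At an unadjusted p under 0.05 and any size, 0 genes were lower among antiviral effectors, sensors, DNA replication, mitosis, proteasome and Nrf2 genes. At that p 2 NF-kB genes, 2 interferon and receptor genes, 5 genes of the integrated stress response, 9 of the unfolded protein response, 8 nuclear respiratory chain genes and 4 mitochondrial ribosomal protein genes were lower, and 1 sterol synthesis gene was higher.

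Contractile genes were lower in EGR1OV for 17 of 29 and higher for 1 (Tnnt2 at 0.70), with a median of -0.46 (-0.53 against Sham in EGR1OV, -0.07 in H/R). Acta2, smooth muscle actin and a marker of cells under tension, measured 1101, 1117 and 1175 FPKM in EGR1OV, 2810.3, 2805 and 2612 FPKM in H/R and 2986, 2873 and 2980.5 FPKM in Sham. EGR1OV was below all other libraries, with a ratio of 2.43 between H/R and EGR1OV. Skeletal actin Acta1 had means of 18.5, 97.2 and 122 FPKM, and calponin Cnn1 100.2, 253 and 250.9 FPKM. Markers of fibroblasts and pericytes moved the same way for 4 of 11 genes, Acta2 among them with Postn, Mcam and Fbln5, and their sum was 1328 to 1415 FPKM in EGR1OV, 2916 to 3128 in H/R and 3177 to 3294 in Sham. Acta2 made up most of it, and the other 10 genes summed to 225.9 to 239 FPKM in EGR1OV, 302 to 316 in H/R and 303 to 306 in Sham. Col1a1 was at 25.7 and 25.8 FPKM in EGR1OV and H/R, Pdgfrb at 3.81 and 3.43, and Dcn at 0.0686 and 0.0493. The part of these cells in the result was not tested. In bulk RNA fewer cells of a type and less RNA per cell cannot be told apart.

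Targets of Yap and Taz, the coactivators that respond to tension and cell density, were lower for 9 of 27 and higher for 1 (Axl at 0.49), with a median of -0.33 (-0.26 against Sham in EGR1OV, 0.04 in H/R), and 15 and 14 were lower with median-ratio scaling and quantile normalization. Ankrd1 had means of 614 FPKM in EGR1OV and 939 in H/R, and Tgfb2 20.7 and 33.7 FPKM. Collagens and other matrix genes were lower for 15 of 43 and higher for 5. Col12a1, a fibril-associated collagen, had means of 12.4, 37.6 and 32.9 FPKM in EGR1OV, H/R and Sham, and the basement membrane chain Col4a1 355, 589 and 537 FPKM. Lama3, a laminin chain, went the other way with 19.1, 10.98 and 9.26 FPKM. Thbs1, a matrix glycoprotein, measured 784, 785 and 814 FPKM in EGR1OV and 1504, 1537 and 1607 FPKM in H/R.

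Among 34 genes of TGF-beta signalling 8 were lower and 2 higher (Tgfbr3 and Snai2). That was 29.4% of the list, beside 20.3% of all expressed genes. The activin trap Fst had means of 44.4 and 110 FPKM in EGR1OV and H/R, and Bmp7, a kidney morphogen, 2.204 and 6.01 FPKM. Of 15 keratin and cornified envelope genes 9 were lower and Krt16 higher (median -0.54, with -0.37 against Sham in EGR1OV and 0.06 in H/R). Krt16 counted as expressed only through EGR1OV, and of the other 14 genes 9 were lower and 0 higher. Sprr1a, a cross-linked envelope protein, measured 155, 152 and 172 FPKM in EGR1OV and 482, 432 and 452 FPKM in H/R, and 5 neighbours on chr3 from Sprr1a to Lce1h were lower together. Lce1f and Lce1h were highest in H/R, with means for Lce1h of 5.72, 30.3 and 17.2 FPKM in EGR1OV, H/R and Sham. The Lce1 genes are close copies and uncertain in level.

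Tubular identity and injury genes were mixed. Of 32 injury markers 5 were higher and 9 lower, 43.75% of the list beside 20.3% of all expressed genes. Lcn2 (NGAL), the secreted injury marker, measured 845, 840.2 and 858 FPKM in EGR1OV, 162, 163 and 158 FPKM in H/R and 156, 151 and 147 FPKM in Sham. It was 5.27 times higher in EGR1OV than in H/R (limma, adjusted p = 1.7e-11). Krt19, Hbegf and Sprr1a were lower by 0.95, 0.75 and 1.51 on the log2 scale. Of 16 segment markers and transporters 4 were lower (Lrp2, Lhx1, Mme and Cdh16) and 2 higher (Trpm6 and Pax2), with 1 called higher under either other scaling. In the main fit 37.5% of this list was called. The endocytic receptor Lrp2 (megalin) had means of 1.22, 3.44 and 3.60 FPKM in EGR1OV, H/R and Sham. Epithelial junction genes were lower for 8 of 35, among them Cldn6, Cdh2 and Krt8, and higher for Tjp3. Tjp3 counted as expressed only through EGR1OV, and of the other 34 genes 8 were lower and 0 higher. Together 25.7% of the junction list was called, beside 20.3% of all expressed genes.

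In growth factor signalling Igfbp5, a secreted binding protein of insulin-like growth factor, measured 50.8, 48.8 and 46.3 FPKM in EGR1OV, 6.47, 7.28 and 7.50 FPKM in H/R and 17.3, 18.8 and 15.2 FPKM in Sham. The 3 groups did not overlap and H/R was lowest, with a ratio of 6.86 between the treated groups. The other 6 called genes of this axis were lower in EGR1OV, among them Igf1 at means of 0.708 and 2.34 FPKM and Igfbp2 at a difference of -0.71. Among 12 retinoid genes 4 were higher and 2 lower, with 1 called higher under quantile normalization. Dhrs3, a retinal reductase induced by retinoic acid, measured 20.8, 20.6 and 20.7 FPKM in EGR1OV, 8.85, 10.9 and 8.69 FPKM in H/R and 22.7, 22.1 and 22.95 FPKM in Sham. It was low in H/R alone, while Aldh1a3, which makes retinoic acid, was higher in H/R at means of 1.32, 3.24 and 1.42 FPKM.

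The Notch ligand Jag1 was likewise raised in H/R, with means of 139 FPKM in EGR1OV, 234 in H/R and 162 in Sham, and the target Hes1 was lower in EGR1OV at -0.56. Of 10 Notch genes 3 were lower in EGR1OV, Jag1, Hes1 and Lfng, and the receptor Notch1 was higher at 0.71. That was 40% of the list, beside 20.3% of all expressed genes. Of 37 Wnt genes 4 were lower, Wnt11, Axin2, Fzd4 and Ccnd1, and 2 higher, Wnt5b and Fzd7. With quantile normalization 9 were lower and 0 higher. The 16.2% of Wnt genes called in the main fit was below the 20.3% of all expressed genes. Of 28 EGF and FGF genes 5 were higher, with Fgf7 (ratio 2.76) and the feedback gene Lrig1 leading, and 6 lower, with Hbegf leading. Of the 26 with an H/R mean of at least 1 FPKM, 3 were higher and 6 lower. In the endothelin and prostaglandin list 6 of 10 were higher, and 3 with quantile normalization. The prostaglandin E synthases Ptges and Ptges2 had ratios of 5.97 and 3.37 and cyclooxygenase Ptgs2 means of 118, 72.6 and 52.5 FPKM in EGR1OV, H/R and Sham. The vasoconstrictor Edn1 measured 25.0, 24.4 and 26.03 FPKM in EGR1OV and 57.4, 58.4 and 58.9 FPKM in H/R.

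Partners and known targets of EGR1 were called in both directions. Of 30 genes 7 were higher and 6 lower, with a median of 0.11 (0.19 against Sham in EGR1OV, 0.17 in H/R), and of 24 immediate early genes 8 were higher and 3 lower, with a median of 0.11. Calls made up 43.3% and 45.8% of these lists, beside 20.3% of all expressed genes. Nr4a1, an orphan receptor among the immediate early genes, had means of 4.77 FPKM in EGR1OV and 2.21 in H/R. The paralogue Egr2 went the other way, with 0.614 FPKM in EGR1OV, 1.94 in H/R and 0.832 in Sham. Atf3, a stress-induced repressor, had 13.7, 3.77 and 5.36 FPKM in EGR1OV, H/R and Sham.

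**Figure D5:**
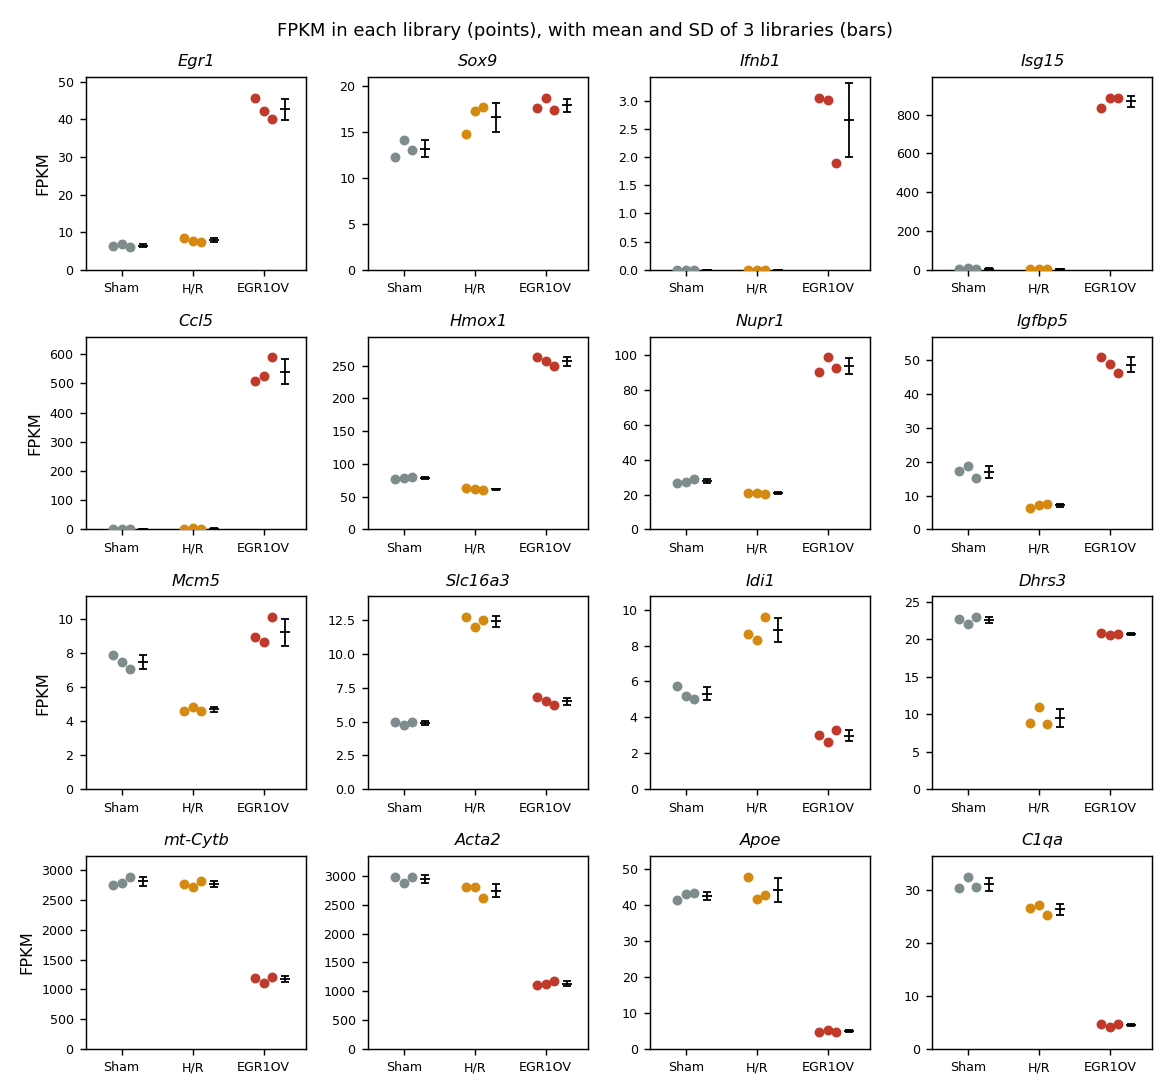
FPKM (y axes, each from 0) of 16 genes in each of 9 libraries, with points for libraries and bars for the mean and SD of 3 libraries beside them. Egr1, Ifnb1, Isg15, Ccl5, Hmox1 and Nupr1 are high in EGR1OV alone, Slc16a3 is high and Mcm5 and Dhrs3 are low in H/R alone, Idi1 and Igfbp5 lie on opposite sides of Sham, and mt-Cytb, Acta2, Apoe and C1qa are low in EGR1OV alone.

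The largest falls included genes of macrophages, a cell type that a primary kidney culture can hold. Apoe, the lipoprotein component made by macrophages and other cells, measured 4.79, 5.18 and 4.56 FPKM in EGR1OV and 47.7, 41.5 and 42.5 FPKM in H/R libraries. The ratio between H/R and EGR1OV was 9.07 with no overlap (limma, adjusted p = 2.8e-10). Lyz2 (lysozyme) measured 6.13, 5.02 and 5.24 FPKM against 47.7, 44.8 and 48.8 FPKM. C1qa measured 4.63, 4.18 and 4.69 FPKM against 26.6, 27.2 and 25.3 FPKM. The adaptor Tyrobp, with C1qb and C1qc, was also among the 10 largest falls.

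Over the whole macrophage and leukocyte list, 16 of 21 expressed genes were lower in EGR1OV, Cd14 and Mpeg1 were higher, and Adgre1, Aif1 and Cd52 were not called. Its sum was 88.6 to 98.0 FPKM in EGR1OV, 205 to 220.2 in H/R and 234 to 246 in Sham, and none of the 8 defining markers examined was at 0. Ptprc (CD45), the common leukocyte antigen, had means of 0.144, 0.494 and 0.470 FPKM. The C1q genes belong to this list. The median of the list was -1.17 between EGR1OV and H/R, beside 1.35 for chemokines and cytokines and 3.49 for antiviral effectors. The part of macrophages in these results was not tested. Endothelial markers were lower for 3 of 7 (Pecam1, and Cdh5 and Plvap whose calls were lost without single libraries), with sums of 19.9 to 20.4 FPKM in EGR1OV and 24.5 to 25.8 in H/R, and podocyte markers had 1 higher and 1 lower of 5. These calls were 42.9% and 40% of the 2 short lists, beside 20.3% of all expressed genes.

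Not all falls were of this kind. Dgkk, a diacylglycerol kinase, measured 3.70, 3.78 and 3.95 FPKM in EGR1OV, 19.5, 19.9 and 20.1 FPKM in H/R and 17.1, 16.02 and 15.95 FPKM in Sham. The natriuretic peptide gene Nppb had means of 3.40, 14.1 and 12.9 FPKM. Both were picked among genes whose 3 values in each group did not overlap. The exact permutation test over 3 against 3 libraries therefore had to give 0.1, the smallest p it allows.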

How the data were processed

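RNA sequencing of 3 Sham, 3 H/R and 3 EGR1OV libraries was analysed. The authors deposited FPKM per gene, 1 table for all libraries. The submitters' processing notes list Bowtie2 2.2.3, HISAT2 2.1.0, TopHat2 and the build mm9, without role or order, whereas gene positions equal GENCODE M21 on GRCm38 in 94.6% of rows. The counter, the annotation release and the treatment of reads with several positions are not given in the sources used here. In the symbol column, 26 symbols that had become dates were restored, and 53 rows share a symbol. Low FPKM values step in whole fragments (98.7% of 154355 values of 1 to 1000 fragments were whole within 0.02), which gave depths of 16183617 to 18384022 fragments. A count of 0 allows up to 3 fragments, for counting error only.

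Values were tested as log2(FPKM + 1) with limma 3.58.1 in R 4.3.3 (trend), all 9 libraries in 1 fit, over genes averaging 0.5 FPKM or more, with Benjamini-Hochberg adjustment over all of them. Differences are on this scale, which understates low genes, while ratios are of mean FPKM. A call needed adjusted p under 0.05 and 1.3-fold. Tables were handled in Python 3.11.15 (pandas 2.3.3, numpy 2.4.6), permutations run in scipy 1.17.1 and plots drawn in matplotlib 3.10.9. In simulated data of 12899 genes for EGR1OV against H/R, 71.2% of 1.5-fold, 87.5% of 2-fold and 91.4% of 4-fold changes were recovered. Only 200 genes were changed there, with the same spread for all genes, and 7 unchanged genes were called. The real comparison had a far larger share of calls, so these rates need not carry over to it. Named genes were Egr1, Sox9, the 10 largest rises and falls with a mean of at least 5 FPKM, and up to 5 called genes per list, or the 2 highest where none was called. Members, lists and rules were chosen with earlier results of these data known. Alternatives were another pseudocount, filters, scalings, a replicate block, fold limits, voom on recovered fragments and leaving out each library.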

Additional observations from a re-analysis of the deposited data

Results flagged for a closer look

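In 8 named genes EGR1OV and H/R were called in opposite directions against Sham, whose libraries both comparisons share. The difference between the treated groups was itself tested by limma. Higher in EGR1OV and lower in H/R than in Sham were Igfbp5, with a difference of 2.62 between the treated groups, Nupr1 at 2.12, Atf3 at 1.63 and Trib3 at 1.06. Lower in EGR1OV and higher in H/R were the sterol enzyme Msmo1 at -0.86, the growth factor Igf1 at -0.97, Idi1 at -1.31 and the envelope gene Lce1h at -2.23. Over all expressed genes 24 had this pattern, 13 of them higher in EGR1OV.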

How the results depend on the processing

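The count of genes called between EGR1OV and H/R was 2215, and 1446 with a mean of at least 5 FPKM (7172 genes tested), 6382 with no fold limit and 414 with a 2-fold limit. The share higher in EGR1OV was 64.8%, and 52.0% with median-ratio scaling, 43.4% with quantile normalization and 80.9% with a 2-fold limit. The cause of the shift with scaling was not tested. Against Sham, EGR1OV gave 1242 calls at a mean of at least 5 FPKM, and H/R gave 317 with a pseudocount of 0.1 and 359 with voom on recovered fragments. The other 69 values of these results stayed within 1.5 times, or within the limit for shares.

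Leaving out each library in turn gave 2151 to 2271 calls between EGR1OV and H/R, 64.5% to 65.6% of them higher, 1840 to 1971 calls for EGR1OV and 147 to 177 for H/R against Sham. Replicate numbers did not pair the libraries (correlations of same-numbered deviations -0.09, -0.05 and -0.04), and the fit with the replicate block gave 2215 calls, 2211 of them shared, 64.7% higher, with 1888 and 148 against Sham. Of the refitted values of named genes 3902 kept direction and side of the threshold, 0 reversed and 52 lost their call, 22 of these under quantile normalization and 11 under median-ratio scaling.

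Calls near the 1.3-fold limit that were lost without a single library were Pidd1, Sesn2, Ndufs7, Mme, Per1, Cdh5 and Postn, at 0.33, 0.36 to 0.38, 0.37, -0.36, 0.35 to 0.37, -0.37 to -0.36 and -0.37 to -0.36. Plvap (-0.44) lost its call without EGR1OV replicate 1 or 3, without H/R replicate 1 or 2 and with no filter on low values. EGR1OV replicate 2 decided Pidd1, replicate 3 Ndufs7 and replicate 1 or 2 Per1. H/R replicate 3 decided Mme. Sesn2 rested on EGR1OV replicate 2 and H/R replicates 1 and 3, Cdh5 on EGR1OV replicates 1 and 2 and H/R replicate 1, and Postn on EGR1OV replicate 1 and H/R replicates 1 and 2.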

Other observations

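The share of genes called, 20.3% over all expressed genes, was 13.8% of p53 targets, 16.7% of heat shock proteins, 9.52% of fatty acid oxidation genes, 33.3% of 12 lipoprotein genes and 20% of clock genes. Of 29 p53 targets 4 were higher and 0 lower (limma, median 0.13, with 5 lower at an unadjusted p under 0.05), led by the DNA repair gene Ddb2 at 0.78, and 1 was called under each of the other scalings. Among 24 heat shock proteins Hspb8 and Bag3 were higher, at 0.85 and 0.45, and Hspb1 and Hspa8 lower, at -0.50 and -0.43. Fatty acid oxidation had 2 of 21 genes higher and 0 lower (limma, 4 lower at an unadjusted p under 0.05), Acaa1a at 0.57 and Cpt1a at 0.45. In lipoprotein handling the lysosomal cholesterol carrier Npc2 was higher at 1.29 and Lrp1 at 0.43, while Apoe and Lrp2 were lower. Among 15 clock genes Nr1d1 and Per1 were higher, at 0.67 and 0.41, and the repressor Cry1 lower at -0.73. Bag3, Lrp1 and Per1 lost their calls with median-ratio scaling and quantile normalization, and Cpt1a with quantile normalization.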
